A study of Mus musculus with 8 samples.

Results

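The 52 genes described here encode subunits of the respiratory chain and of ATP synthase that are carried in the nuclear genome. They were chosen by name, with 33 genes of complex I, 4 of complex II, 7 of complex III, 6 of complex IV and 2 of complex V, out of 21631 protein-coding genes listed by RefSeq for GRCm38.p6 (mm10). All 52 were found in that table, on 16 chromosomes. They were examined in ATAC-seq data from neurons of the mouse amygdala, where a peak is a stretch of open chromatin into which the Tn5 transposase inserted at a higher rate than nearby. There was 1 list for each of 8 libraries, 4 from mice with a guide RNA against the Rosa26 locus (sgRosa, the control) and 4 from mice with a guide against Nr2f2 (sgNr2f2). Nr2f2 encodes COUP-TFII, an orphan nuclear receptor that binds DNA, and the study asked how it bears on accessibility of neuronal chromatin.

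Both groups were male C57BL/6J mice that received the guide by adeno-associated virus in the amygdala, and the guides were described as neuron-targeting. Expression was allowed for more than 2 weeks. Tube restraint for 7 days, 1 day of conditioned fear and 3 days of extinction followed in every mouse, so the control mice carry the same stress and no unstressed group was used here. Neurons were taken from the papain-digested amygdala with a magnetic adult neuron kit. No step that separates transduced from other neurons is named, and the age of the mice and the source of Cas9 are not given in the sources used here.

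In background, the respiratory chain passes electrons from NADH (complex I) or succinate (complex II) through complex III and cytochrome c to oxygen at complex IV, and ATP synthase (complex V) uses the resulting proton gradient. Most subunits are encoded in the nucleus and a small set in mitochondrial DNA, so both genomes must be expressed together. Neurons depend heavily on this pathway, and its nuclear genes are known for compact promoters with sites for NRF1, GABP of the ETS family and YY1.

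The lists on chromosomes 1 to 19 and X held between 53864 and 143405 peaks. Most values below come from equal-length lists, the strongest 53864 peaks of each library by the peak caller's −log10 p. The −log10 p of the weakest peak kept ranged from 2.00 in sgNr2f2 4, whose whole list was kept, to 3.70 in sgRosa 4. The lists are thus equal in length and not in this limit. No read totals come with the lists, so depth is unknown. The lists share little: of 405544 merged regions, 94.9% were present in 1 library alone and 230 in all 8. Nr2f2 itself had 3 peaks in or within 5 kb over the 8 equal-length lists, in sgRosa 3, sgRosa 4 and sgNr2f2 4, and peak numbers give no check of the guide. The labelled cell type could be checked only weakly. A peak within 1 kb of either end of the gene was present in at least 1 library for 9 of 13 neuron markers (none for Snap25, Nefl, Slc17a7 and Gad2), 4 of 6 astrocyte, 2 of 6 oligodendrocyte, 3 of 7 microglia and 3 of 5 vascular markers. Of all protein-coding genes 51.9% had such a peak, so these small counts do not set neurons apart. A peak that is called in 1 library and not in another cannot tell fewer open nuclei from less signal per nucleus.

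Promoter sequences that peaks overlapped in more than 1 library are shown first. The RefSeq promoter table (GRCm38.p6) gives a window of 250 bases before to 50 after the start for 41 members. A peak overlapped this window in at least 2 full lists for 5 of them (12.2%), against 3.72% of 17274 windows in all. These were Uqcrh in 3 lists, and Ndufa5, Sdhd, Ndufs8 and Ndufb10 in 2 each. For at least 3 lists the shares were 2.44% and 0.782%. The bases before the start are printed 5′ to 3′ on the strand of the gene, up to the neighbouring gene where that is nearer than 250 bases. Capitals mark matches to the motifs searched, which are the NRF1 motif in Ndufa5, the ETS motif in Uqcrh and Sdhd, and the nuclear receptor element AGGTCA in Ndufs8 and Ndufb10.
Uqcrh: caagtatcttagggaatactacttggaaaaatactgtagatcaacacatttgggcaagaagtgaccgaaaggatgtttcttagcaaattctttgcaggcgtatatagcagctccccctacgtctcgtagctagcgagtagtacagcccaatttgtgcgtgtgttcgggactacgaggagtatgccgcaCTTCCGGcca
Ndufa5: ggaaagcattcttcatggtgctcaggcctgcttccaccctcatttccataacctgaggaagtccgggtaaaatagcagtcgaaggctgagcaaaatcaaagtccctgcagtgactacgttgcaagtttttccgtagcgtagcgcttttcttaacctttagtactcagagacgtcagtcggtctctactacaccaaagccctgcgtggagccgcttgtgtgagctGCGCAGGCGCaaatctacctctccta
Sdhd: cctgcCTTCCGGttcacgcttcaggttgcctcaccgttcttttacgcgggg
Ndufs8: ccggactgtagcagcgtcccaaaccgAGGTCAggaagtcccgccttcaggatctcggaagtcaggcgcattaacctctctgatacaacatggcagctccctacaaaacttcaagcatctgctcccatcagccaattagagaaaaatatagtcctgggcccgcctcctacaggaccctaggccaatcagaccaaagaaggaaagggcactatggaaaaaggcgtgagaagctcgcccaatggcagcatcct
Ndufb10: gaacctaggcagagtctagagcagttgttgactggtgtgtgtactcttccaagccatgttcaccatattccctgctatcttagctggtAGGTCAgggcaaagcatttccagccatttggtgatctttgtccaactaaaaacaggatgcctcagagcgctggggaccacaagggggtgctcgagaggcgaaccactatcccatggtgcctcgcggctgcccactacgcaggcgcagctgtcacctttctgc

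These stretches lie, all on the minus strand, at chr4:116075071-116075268 (Uqcrh), chr6:24527691-24527940 (Ndufa5), chr9:50603850-50603900 (Sdhd), chr19:3912775-3913024 (Ndufs8), chr17:24724424-24724673 (Ndufb10). Uqcrh encodes the hinge protein of complex III that helps cytochrome c bind. Its 3 peaks had summits 53 and 134 bases before the start in sgRosa 2 and sgNr2f2 1 and 33 bases after it in sgNr2f2 3, with −log10 p of 3.31, 3.02 and 3.34. The peaks at Sdhd, a membrane anchor of complex II, were 61 and 89 bases after the start in sgRosa 3 and sgRosa 4, with −log10 p of 4.04 and 3.84. None of these 5 peaks reached a −log10 q of 1.3 (q of about 0.05), so each is a weak call that recurs at the same place.

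Motifs were counted on both strands over the whole windows of the 41 members and of 17274 genes in all. They were the NRF1 motif (GCGC, then A and any base, then GCGC), the ETS motif CCGGAAG, the YY1 motif (AAGATGG followed by CGG), the GC box GGGCGG, the nuclear receptor element AGGTCA, and that element repeated after any 1 base, which overlaps the single one. The NRF1 motif was in 10 member windows (24.4%) and in 6.74% of all windows, and the YY1 motif in 4 (9.76%) and in 1.27%. The ETS motif was in 8 (19.5%, against 12.1% of all) and AGGTCA in 9 (21.95%, against 14.4%). The GC box was in 17 (41.5%, against 46.9%), and the repeated AGGTCA in 0 members and 0.0521% of all windows. Member windows also held more CpG dinucleotides, with a median of 19 against 14. A match is a string of letters and not a bound site.

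A peak in at least 1 equal-length list overlapped the window of 11 of 41 members (26.8%), against 14.5% of all 17274 windows. In at least 2 lists it did so for 3 members (7.32%: Ndufa5, Sdhd and Uqcrh), against 2.40%. Among members with the NRF1 motif, 4 of 10 had such a peak (Ndufa5, Ndufa6, Ndufs6 and Sdhd), and 7 of the other 31 did. Over all genes the share was 21.7% of windows with that motif and 14.0% without it. For AGGTCA the shares over all genes were 14.2% with and 14.5% without, and 3 of 9 and 8 of 32 in the members.

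At either end of the gene, peaks were more frequent at respiratory chain genes than at protein-coding genes at large, counted in at least 1 and in at least 2 libraries. In the equal-length lists, 35 of 52 members (67.3%, exact Clopper-Pearson 95% interval 52.9 to 79.7%, counting error only) had a gene-end peak, 1 whose summit is within 1 kb of either end, in at least 1 library, against 51.9% of all genes. The genes are not replicates and were chosen with earlier results of these data known, so this interval is no test against all genes. In at least 2 libraries, 24 members (46.2%) had a gene-end peak, against 18.8% of all genes. In at least 3 libraries it was 2 members (3.85%, Ndufa5 and Atp5b) against 5.19%, and in at least 4 it was 1 member (1.92%, Ndufa5) against 1.23%. No member reached 5 libraries, as 0.264% of all genes did, and 17 had no gene-end peak in any. In the full lists, 41 members (78.8%) had one in at least 1 library against 64.1% of all genes, and 30 (57.7%) in at least 2 against 30.8%. There it was 9 members (17.3%) in at least 3 libraries against 11%, and 3 (5.77%) in at least 4 against 3.12%. Members are short genes, with a median length of 7600 bp against 17329 bp, and the part of length in these shares was not tested. Counted within 1 kb of the start alone, for the 41 members with a known strand, the shares in at least 1 library were 48.8% of members and 34.8% of 17274 genes.

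**Figure D1:**
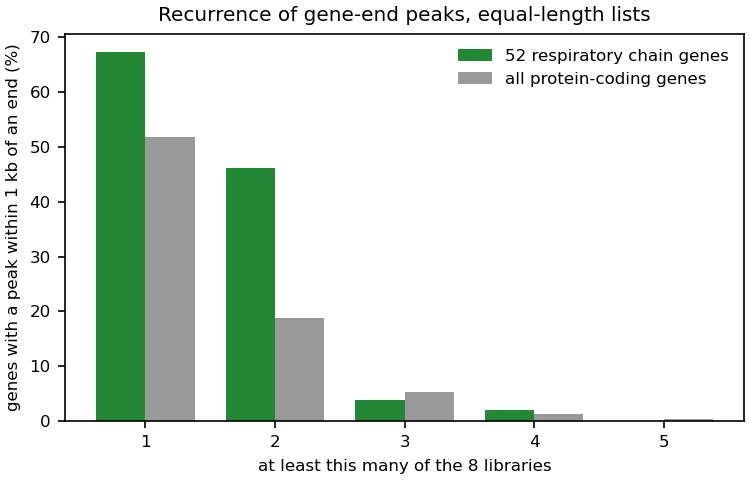
Share of genes (%) with a peak within 1 kb of either gene end in at least 1 to 5 of the 8 equal-length lists, for the 52 respiratory chain genes (green) and all 21631 protein-coding genes (grey). The green bars are higher for 1 and 2 libraries (67.3% against 51.9%, 46.2% against 18.8%) and not for 3 libraries (3.85% against 5.19%).

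Ndufa5, an accessory subunit of the peripheral arm of complex I, had a gene-end peak in sgRosa 1, sgRosa 2, sgNr2f2 1 and sgNr2f2 3. In sgRosa 2, sgNr2f2 1 and sgNr2f2 3 the peaks fell in a merged region, chr6:24527157-24527741, with −log10 p between 2.77 and 4.09. Those of sgNr2f2 1 and sgNr2f2 3 overlapped the promoter window of the start printed above. That of sgRosa 2 lay inside the gene and did not reach this window. In sgRosa 1 the peak lay at the other end of the gene. Atp5b, which encodes the catalytic beta subunit of ATP synthase, had gene-end peaks in sgRosa 1 (45 bp before the start), in sgRosa 3 (588 bp after the start and 588 bp beyond the far end) and in sgNr2f2 3 (819 bp beyond the far end). Both genes therefore had such peaks in libraries of both groups.

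Over all members, 249 peaks lay in or within 5 kb of a gene in the equal-length lists, 68 of them within 1 kb of a gene end. They fell in 229 regions, of which 211 were present in 1 library, 16 in 2, 2 in 3 and none in 4. The regions in 3 libraries were the merged region near the Ndufa5 start and chr8:69903206-69903775, from 771 to 1013 bp upstream of Ndufa13 in sgRosa 3, sgNr2f2 1 and sgNr2f2 4. Ndufa13, also known as GRIM-19, encodes a complex I subunit, and this region also lies in Tssk6, so the peak cannot be assigned to either gene. Of the 249 peaks, 130 summits were inside the member gene, and 47 of the 119 outside it lay in another gene.

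To set these numbers against position alone, each list was moved sideways by 20 to 200 kb in both directions, 20 moves per library, and the gene-end peaks were counted again. The observed numbers were 10, 8, 12 and 7 in sgRosa 1 to 4, against moved means of 4.65, 4.6, 5.6 and 4.85. In sgNr2f2 1 to 4 the observed numbers were 11, 5, 10 and 5, against 7, 3.8, 6.75 and 7.05. The observed number exceeded the moved mean in 7 of 8 libraries, with sgNr2f2 4 the exception. The ratio of observed to moved was 2.15, 1.74, 2.14 and 1.44 in sgRosa (1.87 ± 0.343, SD, n = 4). It was 1.57, 1.32, 1.48 and 0.709 in sgNr2f2 (1.27 ± 0.388, SD, n = 4), so the groups overlap. For all protein-coding genes the same ratio was 1.296 ± 0.178 in sgRosa and 1.127 ± 0.0486 in sgNr2f2 (SD, n = 4), also overlapping. Between 0 and 4 of the 20 moves reached the observed number in sgRosa libraries, and 2, 6, 2 and 17 in sgNr2f2 1 to 4.

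**Figure D2:**
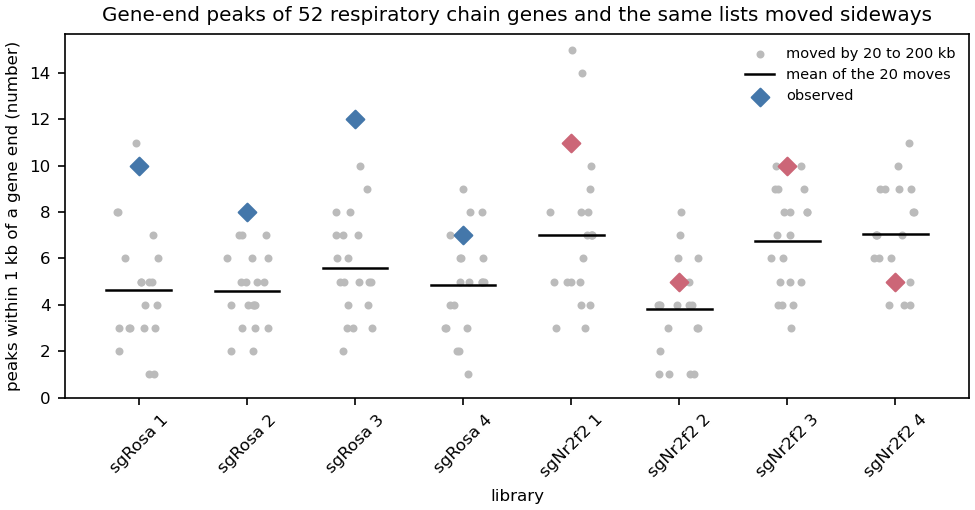
Number of peaks within 1 kb of an end of the 52 respiratory chain genes per library (diamonds, blue for sgRosa and red for sgNr2f2), beside the same lists moved by 20 to 200 kb (grey points, 20 moves per library) and the mean of the moves (black line). The diamond lies above the line in 7 libraries and below it in sgNr2f2 4 (5 against 7.05).

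The number of members with a gene-end peak was 9, 7, 9 and 7 in sgRosa 1 to 4 and 11, 4, 10 and 5 in sgNr2f2 1 to 4. The means were 8 ± 1.15 and 7.5 ± 3.51 (SD, n = 4), a difference of -0.5 that is smaller than the spread between libraries. Taken gene by gene, 6 members had a gene-end peak in at least 2 more sgNr2f2 than sgRosa libraries (11.5%, against 3.57% of all genes) and 5 the reverse (9.62%, against 3.75%).

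In the wider window, a peak in or within 5 kb was present in at least 1 library for 50 members (96.2%, against 88.9% of all genes), in at least 4 for 21 (40.4%, against 54.8%) and in all 8 for 0, against 10.5%. This window includes the gene body, and members are short (median of 7600 bp against 17329 bp). The part of length in these shares was not tested. The summits in this window numbered 29, 26, 31 and 20 in sgRosa 1 to 4 and 34, 42, 33 and 34 in sgNr2f2 1 to 4. The means were 26.5 ± 4.80 and 35.8 ± 4.19 (SD, n = 4), and the groups did not overlap. No test was made of this sum, because the genes were chosen with results of these data known. The lists themselves lay differently: around all protein-coding genes the density was 2.199 ± 0.126 peaks per 100 kb in sgRosa and 2.42 ± 0.144 in sgNr2f2, and around members 2.32 ± 0.419 and 3.13 ± 0.367 (SD, n = 4). Divided by the density of all genes, the member density was 1.24, 1.04, 1.15 and 0.794 in sgRosa and 1.26, 1.62, 1.112 and 1.21 in sgNr2f2, and these ratios overlap. In the full lists, which differ in length, the sums also overlapped, with 30, 29, 38 and 67 in sgRosa and 69, 63, 41 and 34 in sgNr2f2.

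The member with the largest difference was Ndufs4. It encodes an accessory subunit of complex I whose loss causes Leigh-like disease, and at 100300 bp it is the longest member. It had 0, 4, 1 and 1 peaks in sgRosa 1 to 4 and 6, 4, 1 and 6 in sgNr2f2 1 to 4, so the groups overlap. Of its 23 peaks, 21 lay inside the gene and 1 had a −log10 q of at least 1.3. Without Ndufs4 the sums were 29, 22, 30 and 19 in sgRosa and 28, 38, 32 and 28 in sgNr2f2, with means of 25 ± 5.35 and 31.5 ± 4.73 (SD, n = 4). The difference was then 6.5 in place of 9.25, and the groups overlapped. Ndufs4 was picked for its large difference, and the groups lay only 2 peaks apart with all members. With each gene left out of the sum in turn, the groups also touched, at 31 peaks, without any 1 of 7 other genes (Ndufa3, Ndufa5, Ndufa8, Ndufb4, Ndufc2, Ndufs6 and Uqcrc1) and stayed apart without any 1 of the other 44. Peaks at the 6 astrocyte markers numbered 6, 4, 7 and 6 in sgRosa and 16, 8, 8 and 11 in sgNr2f2, without overlap. In the full lists they numbered 7, 4, 7 and 20 against 22, 14, 8 and 11, which overlap. Those at the 13 neuron markers numbered 60, 44, 47 and 57 and then 36, 23, 51 and 42. At oligodendrocyte, microglia and vascular markers the groups overlapped. Of the astrocyte markers, Aqp4 and Slc1a3 had no gene-end peak in any equal-length list, and the part of other cells in the member sums was not tested.

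**Figure D3:**
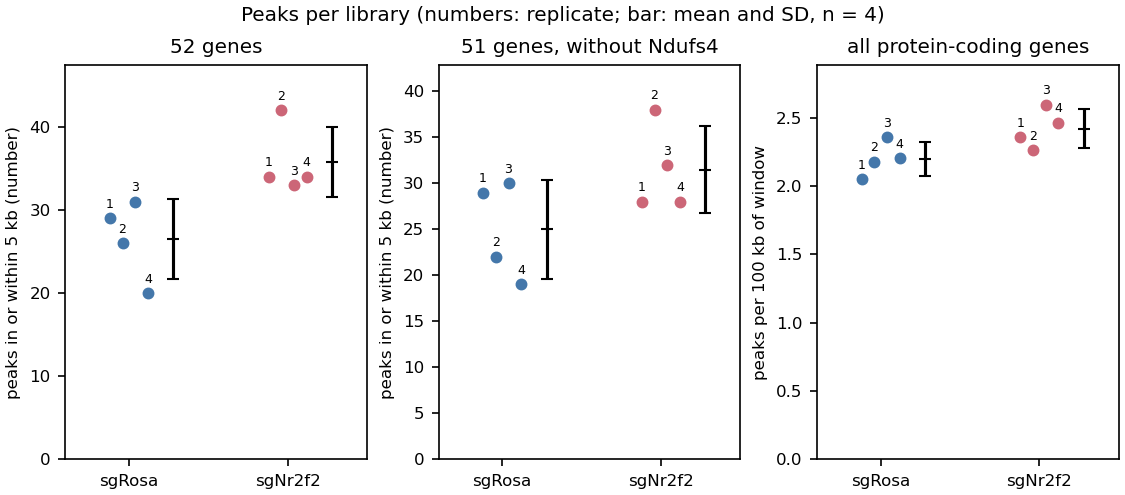
Peaks in or within 5 kb per library for the 52 genes, for 51 genes without Ndufs4 (both as numbers), and per 100 kb of window for all protein-coding genes, with the replicate number beside each point and the mean and SD (n = 4) in black. The groups are apart in the first panel (20 to 31 against 33 to 42) and overlap in the second (19 to 30 against 28 to 38) and in the third.

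Gene by gene, peak numbers were compared over the 8 libraries. Of 50 members with a peak in or within 5 kb in the equal-length lists, 0 reached an unadjusted two-sided exact permutation p under 0.05, against 1.17% of 19230 genes tested (0.78% with more peaks in sgNr2f2 and 0.39% with more in sgRosa). The smallest p that 70 assignments of 8 libraries allow is 0.0286, reached by 225 of these genes. No gene could therefore pass Benjamini-Hochberg adjustment over all genes (adjusted p of 1 for each member), and the adjusted p says nothing of whether a single member differed. More peaks in sgNr2f2 were found for 25 members (50%, against 49.6% of genes), more in sgRosa for 17 (34%, against 36.6%) and equal numbers for 8. These shares are near those of all genes. In terms of libraries, 16 members (30.8%, against 12.6% of all genes) had a peak in at least 2 more sgNr2f2 than sgRosa libraries. The reverse was found for 8 members (15.4%, against 7.77%). The part of gene length in these library shares was not tested either.

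**Figure D4:**
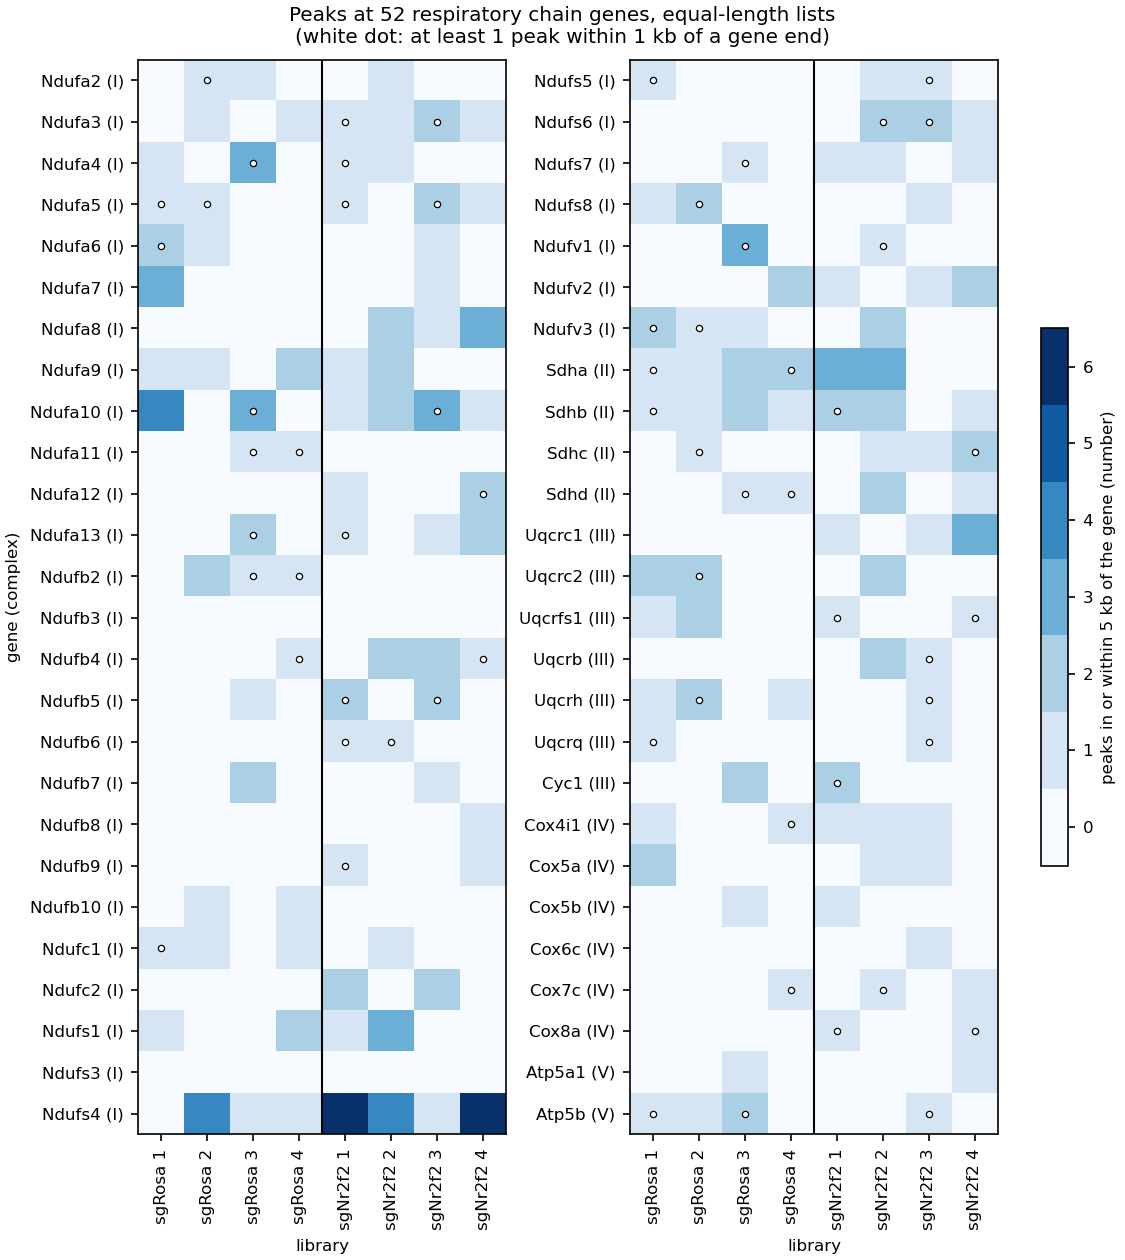
Peak counts, in or within 5 kb, for each of the 52 genes (rows, with the complex in brackets) in each of the 8 equal-length lists (columns, sgRosa left of the line), with a white dot where at least 1 peak is within 1 kb of a gene end. Most cells hold 0 or 1, Ndufs4 reaches 6 in sgNr2f2 1 and sgNr2f2 4, and no gene has a peak in all 8 libraries.

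In what follows, numbers of peaks in or within 5 kb in the equal-length lists are given for sgRosa 1 to 4 against sgNr2f2 1 to 4. Complex I holds the NADH-oxidising core and a shell of accessory subunits. Its 33 genes had 18, 16, 20 and 13 peaks within 5 kb in sgRosa 1 to 4 and 22, 27, 24 and 23 in sgNr2f2 1 to 4, without overlap. The 27 accessory genes gave 16, 14, 16 and 9 against 19, 22, 22 and 20, whereas the 6 core genes gave 2, 2, 4 and 4 against 3, 5, 2 and 3. Without Ndufs4 the other 32 genes gave 18, 12, 19 and 12 against 16, 23, 23 and 17, which overlap. The groups also touched, at 20 peaks, without Ndufa8 or without Ndufc2, and lay apart without any 1 of the other 30 genes.

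Among accessory genes, Ndufa8, which encodes a subunit facing the intermembrane space, had 0 peaks in every sgRosa library and 0, 2, 1 and 3 in sgNr2f2 1 to 4. Ndufs6, a subunit of the peripheral arm, had 0 in every sgRosa library and 0, 2, 2 and 1 in sgNr2f2. For both the exact permutation p was 0.143 (adjusted p = 1), as sgNr2f2 1 tied with the controls at 0. In the full lists sgNr2f2 1 also had peaks, 1 at Ndufa8 and 2 at Ndufs6, and the exact p of each reached 0.0286 (adjusted p = 1). The third member with that p in the full lists was Uqcrc1 of complex III. These 3 of 51 members (5.88%) stand against 0.495% of 19792 genes with that p and more peaks in sgNr2f2. For all 3, sgRosa was at 0 also in the full lists. With lists of 26932 peaks the exact permutation p of each was 0.429. With peaks of −log10 q of at least 1.3 alone, the difference in means was 0.5 at Ndufa8 and 0.25 at Ndufs6. In the equal-length lists it was 1.5 and 1.25. Uqcrc1 had no peak with that q.

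Peaks went the other way at Ndufb2, an accessory subunit of the membrane arm, with 0, 2, 1 and 1 in sgRosa and 0 in all sgNr2f2 libraries (exact permutation p = 0.143, adjusted p = 1). Ndufa11 (0, 0, 1 and 1) and Ndufb10 (0, 1, 0 and 1) also had peaks in sgRosa libraries alone in the equal-length lists. Ndufc2 (2, 0, 2 and 0), Ndufa12 (1, 0, 0 and 2), Ndufb6 (1, 1, 0 and 0) and Ndufb9 (1, 0, 0 and 1) had them in sgNr2f2 libraries alone. Each of these 6 genes had peaks in 2 libraries, so neither group was covered. Peaks in exactly 2 libraries were found for 15 members. How many of all genes had peaks in 1 group alone was not counted. The full lists kept Ndufb2, Ndufb6 and Ndufb9 in the libraries of 1 group. There Ndufc2 and Ndufa12 had 3 peaks each in sgRosa 4, Ndufa11 had 1 in sgNr2f2 3 and Ndufb10 had 1 in sgNr2f2 1. Ndufb4 had 0, 0, 0 and 1 peaks in sgRosa and 0, 2, 2 and 1 in sgNr2f2. Ndufa3, with 0, 1, 0 and 1 against 1, 1, 2 and 1, had a peak in all 4 sgNr2f2 libraries, as did Ndufs4 and Ndufa10, and the groups overlap at 1.

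Ndufa10, a subunit related to nucleoside kinases, followed Ndufs4 in number of peaks, with 4, 0, 3 and 0 in sgRosa and 1, 2, 3 and 1 in sgNr2f2. Its sum was 7 in each group. Ndufs1 encodes the large iron-sulfur subunit of the core and had 1, 0, 0 and 2 peaks against 1, 3, 0 and 0. A pair of complex I genes were bare in the equal-length lists: Ndufb3, which had no peak in any full list either, and the core gene Ndufs3, with 1 peak in the full list of sgNr2f2 1. Ndufa4 is named for complex I but is now assigned to complex IV. Its peaks (1, 0, 3 and 0 against 1, 1, 0 and 0) move the mean density of complex I from 2.65 to 2.61 peaks per 100 kb and that of complex IV from 2.27 to 2.59.

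Complex II, succinate dehydrogenase, also works in the citric acid cycle. Its 4 genes had 2, 3, 5 and 4 peaks in sgRosa and 5, 8, 1 and 4 in sgNr2f2, and all 4 had a gene-end peak in at least 1 library. At a mean of 3.48 peaks per 100 kb over the 8 libraries, its density was the highest of the 5 complexes, with a range of 0.870 to 6.96 that takes in the means of the others. Sdha, the flavoprotein that oxidises succinate, had 1, 1, 2 and 2 peaks in sgRosa and 3, 3, 0 and 0 in sgNr2f2. Sdhb, the iron-sulfur subunit, had 1, 1, 2 and 1 against 2, 2, 0 and 1, and these were the members with a peak in all 4 sgRosa libraries. Sdhc, a membrane anchor, had 0, 1, 0 and 0 against 0, 1, 1 and 2.

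The 7 genes of complex III had 5, 6, 2 and 1 peaks in sgRosa and 4 in each sgNr2f2 library, a mean density of 2.87 per 100 kb. Uqcrc1, a core protein related to processing peptidases, had 0 in every sgRosa library and 1, 0, 1 and 3 in sgNr2f2 (exact permutation p = 0.143, adjusted p = 1). Uqcrh had 1, 2, 0 and 1 against 0, 0, 1 and 0, and Uqcrb, another small subunit, 0 against 0, 2, 1 and 0 (with 2 peaks in the full list of sgRosa 4). The catalytic genes Cyc1 (cytochrome c1) and Uqcrfs1 (the Rieske protein) had peaks in libraries of both groups, 0, 0, 2 and 0 against 2, 0, 0 and 0, and 1, 2, 0 and 0 against 1, 0, 0 and 1.

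The 6 genes of complex IV, cytochrome c oxidase, had 3, 0, 1 and 2 peaks against 3, 3, 3 and 2. A gene-end peak in any library was present at 3 of the 6 (Cox4i1, Cox7c and Cox8a) and at 4 in the full lists. In complex I it was present at 21 of 33 genes, in complex III at 6 of 7 and in complex V at 1 of 2, and the share of all genes was 51.9%. Cox8a, a small structural subunit, had 1 peak each in sgNr2f2 1 and sgNr2f2 4, and 1 also in the full list of sgRosa 4. The 2 genes of complex V had 1, 1, 3 and 0 peaks against 0, 0, 1 and 1. Most of these were at Atp5b, with 1, 1, 2 and 0 against 0, 0, 1 and 0. In complexes II to V the groups overlapped.

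Member peaks were mostly weak. Their −log10 p in the equal-length lists ran from 2.03 to 9.66 with a median of 3.84, and their fold enrichment from 1.97 to 4.35. These are the authors' values for each peak and compare within a list. The median member peak stood at the 56.8th, 53.2nd, 44.3rd and 60.1st percentile of its full list in sgRosa 1 to 4 and at the 47.2nd, 55.6th, 43.8th and 51.8th in sgNr2f2 1 to 4, near the middle in each library. A −log10 q of at least 1.3 was reached by 33 peaks at 26 members, 50% of members against 54.2% of all genes. Counted at gene ends it was 14 peaks at 12 members (23.1%, against 11.4% of all genes).

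The strongest peak was the Ndufa13 peak of sgRosa 3 (−log10 p of 9.66, fold of 4.35, −log10 q of 5.12) that lies in Tssk6. It was followed by peaks inside Ndufa7 in sgRosa 1 (−log10 p of 8.35), beyond the far end of Sdhb in sgRosa 3 (8.21), upstream of Ndufa8 and in Morn5 in sgNr2f2 2 (7.74), and inside Ndufs4 in sgNr2f2 1 (7.21). Ndufa7 is an accessory subunit of the peripheral arm. Of these 5 peaks 1 is within 1 kb of a gene end. Gene-end peaks with that q numbered 5, 2, 2 and 1 in sgRosa 1 to 4 and 1 in each sgNr2f2 library. Over all genes such peaks made up 22.6, 7.11, 9.77 and 7.41% of gene-end peaks in sgRosa and 8.27, 6.04, 17.6 and 13.4% in sgNr2f2.

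Gene-end peaks with that q nearest to a known start were those of Ndufv3, a small flavoprotein-fraction subunit, 34 bp before the start in sgRosa 1 (−log10 p of 5.05), and of Ndufa12, 109 bp before it in sgNr2f2 4 (5.32). Ndufb6 followed with a peak 159 bp before the start in sgNr2f2 1 (5.91). The peaks of Ndufs6 (5.12 in sgNr2f2 2), Ndufa6 (4.92 in sgRosa 1), Ndufb5 (5.02 in sgNr2f2 3) and Sdha (5.67 in sgRosa 1 and 5.59 in sgRosa 4) lay at the far end of the gene. The peaks of Uqcrc2 (5.87 in sgRosa 2), Uqcrq (5.05 in sgRosa 1) and Ndufa2 (6.57 in sgRosa 2) were within 43 bp of an end, at genes without a strand in the table. The Ndufs5 peak (5.05 in sgRosa 1) was 547 bp before the start. None of the 12 genes had a gene-end peak with that q in both groups. With 14 such peaks at 12 genes, most genes had only 1 and could not, and the same was not counted over all genes.

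**Figure D5:**
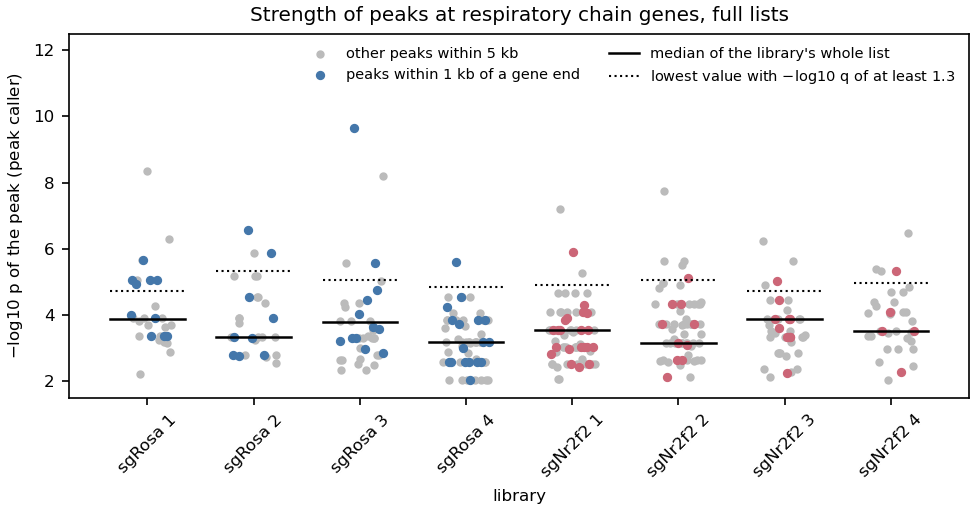
−log10 p of each peak in or within 5 kb of the 52 genes in the full lists, by library, with peaks within 1 kb of a gene end in blue (sgRosa) or red (sgNr2f2) and the others in grey. The black line is the median of the library's whole list and the dotted line the lowest value with a −log10 q of at least 1.3, which most points lie under. The highest point is the Ndufa13 peak of sgRosa 3 (9.66).

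Other genes of the pathway were counted the same way, where 51.9% of all genes had a gene-end peak in at least 1 library. Of 30 other subunit genes, 18 (60%) had one, and their peaks within 5 kb numbered 12, 11, 9 and 13 in sgRosa and 16, 9, 17 and 14 in sgNr2f2. The number of these genes with a gene-end peak was 3, 1, 2 and 2 in sgRosa and 5, 4, 4 and 6 in sgNr2f2, without overlap, unlike that of the 52 members. In the full lists it was 4, 1, 4 and 6 against 9, 5, 4 and 6, which overlap. Of all protein-coding genes, 9.90, 10.03, 9.96 and 8.58% had a gene-end peak in the equal-length lists of sgRosa 1 to 4. In sgNr2f2 1 to 4 the share was 10.05, 8.03, 10.91 and 10.16%, so there the groups overlap. Cycs, which encodes the electron carrier cytochrome c, had a gene-end peak in sgRosa 1, sgRosa 3, sgNr2f2 1 and sgNr2f2 4. Of 35 assembly factor genes, 20 (57.1%) had a gene-end peak, and the peaks within 5 kb numbered 45, 17, 31 and 24 against 23, 34, 35 and 36. Foxred1, an assembly factor of complex I, had 1 peak in each sgRosa library and none in sgNr2f2 (exact permutation p = 0.0286, adjusted p = 1). Of 11 regulators of the pathway or of mitochondrial transcription, 6 (54.5%) had a gene-end peak. Yy1, whose protein binds the YY1 motif above, had 0 peaks in every sgRosa library and 1, 1, 3 and 3 in sgNr2f2 (exact permutation p = 0.0286, adjusted p = 1). Of the 76 genes, 70 had a peak within 5 kb and were tested, and 1 of them (1.43%) had the smallest p in each direction, against 0.78% (more peaks in sgNr2f2) and 0.39% (more in sgRosa) of all genes tested.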

How the data were processed

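ATAC-seq peak lists of 8 libraries were used, with groups and replicate numbers from the sample titles. Peaks were deposited per library in mm10, with the authors' score (not used), a fold enrichment (a ratio over background), a −log10 p and a −log10 q. MACS2 2.2.9.1, HOMER 4.10, DiffBind 3.10.0, Picard, fastp 0.23.2, MultiQC 1.11 and FastQC 0.11.9 are named, per the submitters' processing notes. How reads were aligned, deduplicated and shifted, and the calling options, are not given in the sources used here. No deposited −log10 p was below 2.00.

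Where an interval had several summits the strongest was kept (3499 lines removed). Equal-length lists kept the strongest 53864 peaks by −log10 p. Peaks tied at the limit (18530 in sgNr2f2 2, of which 5311 were kept) were taken in a seeded random order, since file order would favour some chromosomes. Genes and promoters came from RefSeq tables. The gene table holds no strand, so either gene end was used. For 11 members (Ndufa2, Ndufb9, Ndufs1, Sdhc, Uqcrc2, Uqcrb, Uqcrq, Cyc1, Cox4i1, Cox6c and Atp5a1) no strand or promoter was used here.

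Peak numbers per gene were compared by two-sided exact permutation with Benjamini-Hochberg adjustment over all genes. The members and lists were chosen with earlier results of these data known. Genes are named by gene-end recurrence (up to 10), a difference of at least 2 libraries between groups, number of peaks (up to 10), the smallest exact p, a gene-end −log10 q of at least 1.3, or no peak. Other genes named in the text (Ndufa7, Ndufs3, Ndufs8, Sdhd, Cyc1, Uqcrfs1, Cox4i1, Cox7c and Ndufv1) were chosen after their values were seen. Alternatives were other list lengths, rankings, windows and tie rules, and each library left out. Calculations were tested on simulated data. Software was matplotlib 3.10.9, scipy 1.17.1, pandas 2.3.3, numpy 2.4.6 and Python 3.11.15.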

Additional observations from a re-analysis of the deposited data

Results flagged for a closer look

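In 33 groups of 4 libraries that were examined (sums over members, complexes, and members whose counts differed by at least 3 within a group), 3 held 1 library far from the other 3. The gap was judged against Dixon's 95% critical value, by which chance nominally flags about 1 in 20 groups. Counts at single members were small, often tied and chosen by their range, so this rate need not hold for them. sgNr2f2 2 had 42 member peaks in or within 5 kb, against 33 to 34 in the other sgNr2f2 libraries. It is also the library with the most peaks tied at the limit of its equal-length list, and it had 37 member peaks when tied peaks were left out or taken in file order and 47 when all were kept. Leaving this library out changed the difference between groups from 9.25 to 7.17 peaks. sgRosa 1 had 3 peaks at Ndufa7 and the other sgRosa libraries 0. sgRosa 3 had 3 peaks at Ndufv1, the flavin-binding core subunit of complex I, and the other sgRosa libraries 0.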

How the results depend on the processing

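The difference in member peaks within 5 kb (9.25) was 3.25 with lists of 26932 peaks and -0.25 with peaks of −log10 q of at least 1.3 alone, and the cause was not tested. Under 12 other settings it lay between 6.49 and 12.8, and between 7.08 and 10.8 with each library left out. Of these 12 settings, pairing by replicate number could not change it. Nor could removing the regions found in all 8 lists, since no member peak overlapped one. The groups' numbers were apart in 5 of 13 settings, the reported one and the removal of those regions included. They overlapped or touched with full lists, shorter lists, ranking by fold, q-filtered peaks, tied peaks left out, summits inside the gene or within 10 kb, and scaling to all genes. Tie rules, the removal of Ndufs4 or of any other single gene, and the scaling were chosen after seeing the data.

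The difference in members with a gene-end peak ranged from -1.25 to 0.75, and from -1.67 to 0.67 with a library left out, with no fixed sign. Observed over moved peaks at gene ends (mean of 8 libraries 1.57) was 2.48 with q-filtered peaks, 1.23 to 2.00 under 11 other settings, and 1.49 to 1.69 with a library left out. The excess of members over all genes with a gene-end peak (15.4 percentage points) was 11.7 to 16.7, and 13.6 to 18.9 with a library left out.

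The adjusted p cannot reach the threshold in this design, so the 0 members that passed it in each setting say nothing of stability. At an unadjusted exact p under 0.05, Ndufa8 and Ndufs6 appeared without sgNr2f2 1, Uqcrc1 without sgNr2f2 2 and Ndufb2 (more peaks in sgRosa) without sgRosa 1. The p of Foxred1 rose above 0.05 in 4 settings and that of Yy1 in 3, and for Yy1 to 0.0857 without any 1 sgRosa library. Correlations across genes gave no sign that replicate numbers pair the libraries, and cannot exclude it. In the equal-length lists same-numbered libraries correlated at 0.064, 0.015, 0.038 and -0.003, and other pairs of the 2 groups at -0.109 to 0.078. In the full lists the same-numbered values were -0.18, -0.27, 0.33 and -0.53, and the others ran from -0.45 to 0.43. With libraries paired by replicate number (the replicate block), the differences in member peaks and members with a gene-end peak stay at 9.25 and -0.5 by construction. There 0 members passed, as none could with a smallest possible exact p of 0.125. Without read totals, the lists cannot show whether a gene without a peak lacks signal.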

Other observations

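Peaks were also listed on the mitochondrial genome, which encodes the other subunits of complexes I, III, IV and V. Each library had 28 to 33 lines there, in 4 to 6 intervals, with a highest −log10 p between 274 and 887.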
